A study of Mus musculus with 21 samples.

Results

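Spic and 9 genes of cellular iron handling (Hmox1, Blvrb, Fth1, Ftl1, Slc40a1, Cp, Tfrc, Slc11a1 and Slc11a2) were followed across 21 RNA-seq libraries of macrophages sorted from mouse brain. They are 10 of the 57180 genes in the deposited table, chosen by name because Spic had one of the largest differences between transplanted monocyte-derived cells and transplanted microglia. All 10 passed the filter on low counts, which left 18867 genes for testing. That difference is therefore described here and not tested.

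The study compared 3 kinds of brain macrophage in adult mice. MG were transplanted microglia and MLC were transplanted monocytes labelled monocyte-derived microglia, both of genotype Osb-GFP. NoTx were microglia of mice that had no transplant, of genotype CX3CR1-CreER+/-; CSF1R fl/fl. After saline there were 3 libraries of MG, 3 of MLC and 2 of NoTx. Kainic acid, which excites neurons through glutamate receptors, was used to induce seizures, and 5 days later 4 libraries of MG, 6 of MLC and 3 of NoTx were made. The labels do not say which cells of the hosts carried the transplant marker, nor whether animals were pooled. Genotype and transplantation cannot be told apart in MLC or MG against NoTx. Batch 1 holds the seizure libraries and batch 2 the saline ones, so an effect of treatment and one of batch cannot be told apart either.

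Old red cells are taken up by macrophages, which open heme with heme oxygenase, store the iron in ferritin and release it through ferroportin. Spic is a transcription factor of the Ets family that macrophages of the splenic red pulp need to form, and heme raises its expression in monocytes. Microglia, the resident macrophages of brain tissue, normally take up iron bound to transferrin or in other forms and keep it in ferritin.

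Total counts ran from 36.5 to 50.3 M per saline library and from 6.57 to 73.8 M per seizure library. MG seizure replicates 3 and 4 and MLC seizure replicate 5 were poorest in genes at equal depth (8947, 9647 and 9514, against 10273 to 11975 in the others). Seizure MLC replicates 3 and 6 hold 11b in their names and carry the codes of replicates 2 and 4, so shared animals cannot be told apart from separate ones. The summed level of 8 microglial markers (P2ry12, Tmem119, Sall1 and others) was 46600 to 80200 CPM (counts scaled by TMM to a common library size) in MG and NoTx and 11500 to 23700 in MLC. The 6 border macrophage markers (Mrc1, Pf4 and others) summed to 855 to 1560 CPM in MLC and 2.7 to 227 in MG and NoTx. The MLC sum was mainly Mrc1 (636 to 1300 CPM). After saline Mrc1, Pf4 and Cd163 were higher in MLC than in NoTx, and Cbr2 overlapped. F13a1 went the other way, at 4.04 to 18.3 CPM in MLC and 86.5 to 172 in NoTx, as did Lyve1. Lyve1 was at 0 in all MLC seizure libraries. Xist, a transcript of the inactive X, exceeded 50 CPM in 7 of 7 MG and 0 of 9 MLC libraries. The summed Y-linked transcripts exceeded it in 6 of 7 MG libraries and 9 of 9 MLC libraries, so most MG libraries carried both signals. In this pair the presence of female cells cannot be told apart from the kind of cell. In NoTx, Xist exceeded 50 CPM in 0 of 2 saline and 2 of 3 seizure libraries. The Y-linked sum exceeded it in 2 of 2 and 1 of 3. Sex signals thus also differed in comparisons with NoTx and between its treatments, and their part was not tested. The letters F and M in the library names were not used as sex.

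Part of this gene group is tied together by a stem-loop in the messenger RNA, the iron-responsive element. Iron regulatory proteins bind it when iron is scarce, which blocks translation when it lies in the 5′ UTR and protects the transcript when it lies in the 3′ UTR. RNA counts can reflect such control of Tfrc but do not show the translational control of ferritin and ferroportin. A search of GENCODE M21 transcripts (build GRCm38) for a loop CAGTGN closed by 5 base pairs above a C bulge found the element in UTRs of 4 of the 10 genes, against 160 of 21877 protein-coding genes (0.731%). The 27-base elements are shown because the search found them before the coding sequence in the export and storage genes and after it in Tfrc (4 matches). Elements that depart from this pattern are missed, so a gene may carry more than are shown, or carry one without a match. Capitals mark the loop.

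Slc40a1, 5′ UTR: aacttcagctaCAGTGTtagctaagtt
Fth1, 5′ UTR: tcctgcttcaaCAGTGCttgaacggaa
Ftl1, 5′ UTR: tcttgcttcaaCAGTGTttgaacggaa
Tfrc, 3′ UTR, one element: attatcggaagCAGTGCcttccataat
Tfrc, 3′ UTR, another: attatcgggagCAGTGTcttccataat
Tfrc, 3′ UTR, another: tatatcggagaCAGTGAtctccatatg
Tfrc, 3′ UTR, another: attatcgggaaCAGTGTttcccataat

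The promoters of Spic and Cp are shown because these genes had the same pattern over the groups, described next. Each is the 250 bases before the RefSeq start (GRCm38.p6, which differs from the GRCm39 build of the counts), and entries were found for 7 of the 10 genes. Capitals mark matches to GGAAGT, an Ets core, on either strand. The other motif searched was TGANNNNGC, which sites of Bach1 and Nfe2l2 hold, also on either strand. GGAAGT occurs in 19.7% and TGANNNNGC in 35.2% of 32851 promoters of this length.

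Spic, chr10:88683024-88683273, minus strand: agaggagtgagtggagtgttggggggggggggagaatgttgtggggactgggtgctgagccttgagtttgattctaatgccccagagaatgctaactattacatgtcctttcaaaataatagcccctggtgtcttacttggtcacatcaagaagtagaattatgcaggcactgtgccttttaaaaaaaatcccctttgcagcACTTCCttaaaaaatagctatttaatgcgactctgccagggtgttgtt
Cp, chr3:19956804-19957053, plus strand: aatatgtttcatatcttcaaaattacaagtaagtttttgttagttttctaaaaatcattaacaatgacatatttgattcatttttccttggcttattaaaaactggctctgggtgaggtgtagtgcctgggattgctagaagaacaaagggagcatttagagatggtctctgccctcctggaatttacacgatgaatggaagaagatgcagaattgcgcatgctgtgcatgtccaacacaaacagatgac

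The Spic promoter holds 1 GGAAGT match, 48 bases before the start, and neither promoter holds TGANNNNGC. The Cp promoter shown holds neither motif. A match is a description of letters and no evidence of binding. TGANNNNGC was found in the Slc11a1 and Blvrb promoters, and GGAAGT in 1 of the 2 overlapping Tfrc entries.

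Spic (ENSMUSG00000004359) was present in every MLC library and close to the detection limit in every MG library. In MLC it had 38.0, 47.6 and 31.8 CPM after saline, and 40.0, 44.0, 41.9, 61.7, 35.7 and 51.2 after seizure. In MG after saline it had 0.0931, 0.0228 and 0 CPM, where a count of 0 allows up to 0.0833 CPM (3 counts). In MG after seizure it had 0, 0, 0.133 and 0.0953 CPM, where the 2 zeros allow up to 0.294 and 0.374 CPM. The MLC and MG libraries did not overlap, and the 9 MLC libraries differed by no more than 1.94-fold.

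In counts, the 3 MLC saline libraries held 5206 for Spic and the 3 MG saline libraries held 5. After seizure the 6 MLC libraries held 3884 and the 4 MG libraries 8. The fitted log2 fold change of MLC over MG rested on these few MG counts: 9.80 (SE 1.05) after saline and 9.14 (SE 0.89) after seizure. The saline value was 9.30 without MG replicate 3 and 11.23 without MG replicate 1, which held most of the MG counts. The seizure value was 8.89 to 9.69 when each library was left out and 9.22 without the 11b libraries. Without the 3 libraries poorest in genes both remaining MG libraries are at 0, and no fold is given. The sum of border macrophage markers, mainly Mrc1, moved with Spic, at 855 to 1560 CPM in MLC and 2.7 to 50.5 in MG. The part of these markers was not tested. The 5 blood monocyte markers (Ly6c2, Ccr2 and others) summed to 0.695 to 8.78 CPM in MLC and 0.716 to 54.3 in MG. In sorted bulk cells, fewer cells that express a gene and less RNA per cell cannot be told apart.

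Untransplanted microglia held little Spic. NoTx had 1.09 and 0.437 CPM after saline and 0.0691, 0.0608 and 0.0505 CPM after seizure. Both saline libraries lay above the 3 seizure libraries, as they did for 16.2% of tested genes. The total was 62 counts after saline and 6 after seizure, and edgeR gave a log2 fold change of -3.58 (SE 0.91, adjusted p = 0.25), which did not pass the limit. DESeq2 gave an adjusted p of 0.00035. Border macrophage markers moved the same way in these libraries, with sums of 157 to 227 CPM after saline and 5.33 to 44.9 CPM after seizure. So did blood monocyte markers, with 132 to 998 and 5.94 to 123 CPM, and their part in the Spic values was not tested.

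**Figure D1:**
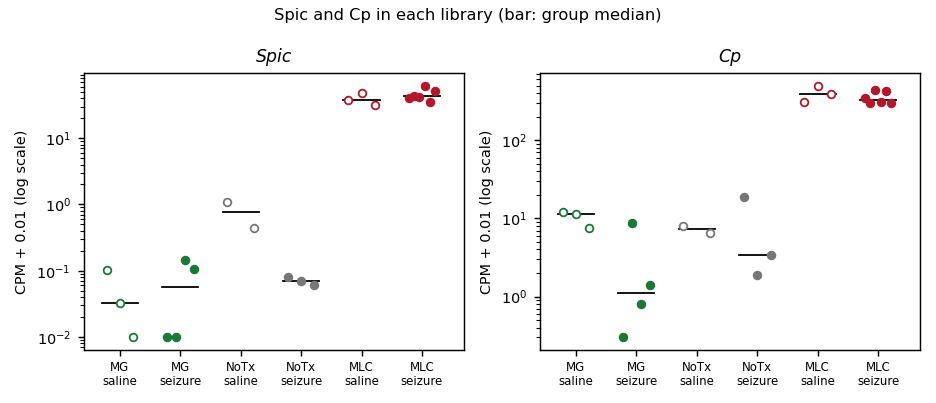
Levels of Spic (left) and Cp (right) in each of the 21 libraries, as CPM plus 0.01 on a log scale, by kind of cell and treatment; open circles are saline, filled circles are seizure, and bars are group medians. In both panels the 9 MLC libraries lie above all MG and NoTx libraries (31.8 to 61.7 CPM for Spic, 299 to 497 CPM for Cp).

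Cp (ENSMUSG00000003617) encodes ceruloplasmin, the copper ferroxidase that oxidises iron leaving a cell so that transferrin can bind it. It set MLC apart as Spic did. In MLC it had 305, 497 and 388 CPM after saline (mean 396 ± 96.4, SD, n = 3), and 349, 299, 443, 306, 424 and 302 after seizure (354 ± 64.5, n = 6). In MG it had 12.2, 11.3 and 7.55 CPM after saline, and 0.294, 8.84, 0.796 and 1.40 after seizure. In NoTx it had 8.08 and 6.58 CPM after saline, and 19.0, 1.88 and 3.38 after seizure. The lowest MLC library (299 CPM) exceeded the highest of the other 12 libraries (19.0 CPM), and the MLC libraries differed by at most 1.66-fold.

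Against NoTx, a contrast the choice of genes did not use although it shares the MLC libraries, Cp was higher in MLC after saline (log2 fold change 5.76, SE 1.11, adjusted p = 0.0062 by edgeR). It was also higher after seizure (5.47, SE 0.89, adjusted p = 0.00033). The log2 fold changes of MLC over MG, given as a description, were 5.26 (SE 0.90) after saline and 7.05 (SE 0.85) after seizure. The last was 8.65 without MG seizure replicate 2, the MG library with the most Cp. The seizure value against NoTx passed the limit in 19 of 19 other fits, among them the fit without the 11b libraries (5.43, adjusted p = 0.0016), and was 7.08 (adjusted p = 0.00013) without NoTx seizure replicate 1. The saline value failed when either NoTx library was left out (adjusted p = 0.14 and 0.18), where 1 NoTx library is assumed to vary like the other groups.

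Neighbouring and foreign transcripts were read beside Cp. Cp overlaps Hps3 on the opposite strand, and the sources used here do not say whether counting used strand. Hps3 had 134 to 355 CPM in MLC and 138 to 230 CPM in the other libraries, and the part of shared reads in the Cp values was not tested. Astrocytes, which make ceruloplasmin, were sought through 5 markers: these summed to 9.49 to 14.8 CPM in MLC saline libraries, 0.135 to 45.9 in MLC seizure libraries and 20.3 to 54.7 in NoTx seizure libraries. They summed to 5.43 to 6.25 CPM in NoTx saline libraries, and their part in the Cp values was not tested. The sum of border macrophage markers, mainly Mrc1 in MLC, moved with Cp, at 855 to 1560 CPM in MLC and 5.33 to 227 in NoTx. F13a1 and Lyve1 of that list went the other way after saline (F13a1 4.04 to 18.3 CPM in MLC, 86.5 to 172 in NoTx). The part of these markers was not tested.

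Slc40a1 encodes ferroportin, the exporter through which iron leaves macrophages. It was the only one of the 10 genes that lay wholly lower in MLC than in MG after saline: 209, 148 and 370 CPM in MLC against 430, 424 and 488 in MG. Those groups did not overlap, and 12.4% of tested genes also lay wholly lower in MLC there. After seizure MLC had 342, 280, 178, 105, 84.0 and 118 CPM and MG had 315, 428, 418 and 247, which overlapped. NoTx had 314 and 236 CPM after saline and 221, 521 and 425 after seizure. Against NoTx after seizure the log2 fold change was -1.08 (SE 0.38, adjusted p = 0.097), past the limit in 2 of 19 other fits. In these libraries the ferroxidase that works with ferroportin and ferroportin itself did not show the same order of groups, which is a description and was not tested.

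Hmox1 encodes heme oxygenase-1, which opens the heme ring and frees its iron. MLC and MG overlapped in both treatments. After saline it had 39.9, 34.3 and 54.0 CPM in MLC, 21.7, 35.1 and 45.7 in MG, and 20.9 and 17.7 in NoTx. After seizure it had 12.8, 51.6, 67.5, 34.9, 4.06 and 29.6 CPM in MLC, 29.4, 21.3, 89.3 and 16.5 in MG, and 26.3, 20.5 and 24.1 in NoTx. The MLC saline libraries lay above both NoTx saline libraries, as they did for 15.3% of tested genes. The edgeR log2 fold change was 1.14 (SE 0.83, adjusted p = 0.92). The spread of the seizure groups (16.6-fold in MLC, 5.41-fold in MG) was wide beside the differences between kinds of cell.

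Blvrb encodes biliverdin reductase B, an enzyme that acts on biliverdin and flavins downstream of heme oxygenase. In MLC after saline it had 96.6, 84.6 and 95.3 CPM, against 29.6, 38.6 and 42.9 in MG and 24.8 and 29.5 in NoTx. MLC overlapped neither group, where 10.4% of tested genes lay wholly above MG and 15.3% wholly above NoTx. After seizure MLC had 77.4, 81.6, 128, 56.1, 26.7 and 50.2 CPM, against 21.6, 38.4, 46.1 and 36.2 in MG and 23.8, 33.0 and 35.8 in NoTx. Only MLC seizure replicate 5, with 26.7 CPM, fell within the range of the other cells.

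Against NoTx the edgeR log2 fold change of Blvrb was 1.76 (SE 0.53, adjusted p = 0.14) after saline and 1.18 (SE 0.40, adjusted p = 0.084) after seizure. Neither passed the limit. They passed in 4 of 12 and 6 of 19 other fits. After seizure it passed without MLC replicate 5 (1.43, adjusted p = 0.014). With a correction for GC content the value was 1.33 (adjusted p = 0.44) after saline and 1.53 (adjusted p = 0.032) after seizure. Blvrb is richer in GC than 90.7% of tested genes, and MLC seizure replicate 5 had the lowest level of GC-rich against GC-poor genes of its group (-1.48 on the log2 scale). The part of GC content in the Blvrb values was not tested beyond this correction.

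Ferritin stores iron in a shell of heavy and light chains, encoded by Fth1 and Ftl1. Fth1, the heavy chain that oxidises iron on entry, had 1820, 979 and 1270 CPM in MLC after saline, against 305, 560 and 1080 in MG and 275 and 307 in NoTx. MLC lay above NoTx, as for 15.3% of tested genes, and overlapped with MG replicate 3. After seizure MLC had 866, 1160, 1840, 1080, 543 and 872 CPM, against 606, 561, 1070 and 603 in MG and 566, 739 and 477 in NoTx. These groups overlapped.

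Fth1 was higher in MLC than in NoTx after saline (log2 fold change 2.22, SE 0.51, adjusted p = 0.028 by edgeR), and after seizure the value was 0.84 (SE 0.38, adjusted p = 0.18). The saline call was lost without NoTx replicate 1 (adjusted p = 0.34), without NoTx replicate 2 (0.31) and without MLC replicate 1 (0.098). Whether the saline and seizure values differ from each other was not tested.

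Ftl1, the light chain that forms the iron core, had 6270, 5610 and 6270 CPM in MLC after saline, above 2880, 3840 and 3460 in MG and 2990 and 2880 in NoTx. Of tested genes 10.4% lay wholly above MG and 15.3% wholly above NoTx in these MLC libraries. After seizure MLC had 4680, 4950, 6640, 3450, 681 and 3460 CPM, against 2620, 2710, 4440 and 2260 in MG and 2250, 3920 and 3020 in NoTx. Replicate 5 of MLC was again the low value. Against NoTx the log2 fold change was 1.04 (SE 0.53, adjusted p = 0.66) after saline and 0.38 (SE 0.40, adjusted p = 0.62) after seizure. Ferritin has pseudogene copies that can share reads, and the Fth1 and Ftl1 rows held at least 99.7% and 98.3% of the counts of each gene with its copies.

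**Figure D2:**
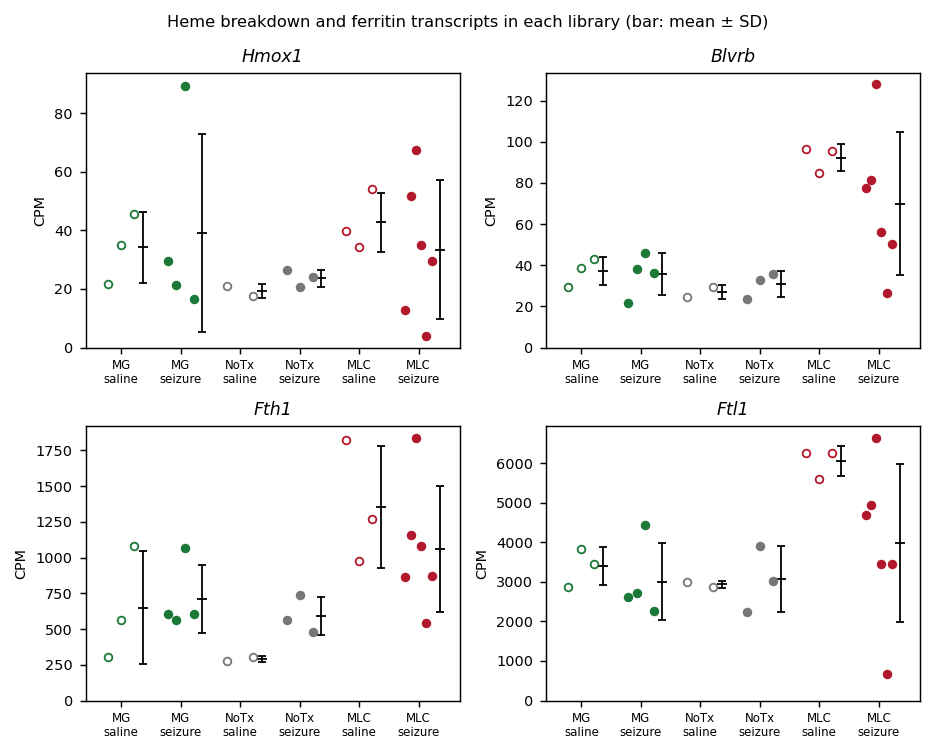
Levels of Hmox1, Blvrb, Fth1 and Ftl1 in CPM in each library by kind of cell and treatment; open circles are saline, filled circles are seizure, and bars are mean ± SD. Blvrb and Ftl1 in the 3 MLC saline libraries lie above all MG and NoTx saline libraries, and 1 MLC seizure library is low for all 4 genes (26.7 CPM for Blvrb and 681 for Ftl1).

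Tfrc encodes the transferrin receptor, which brings in iron bound to transferrin. It was present in all saline libraries and nearly absent from most MLC seizure libraries. After saline it had 12.1, 10 and 6.27 CPM in MLC, 13.6, 22.8 and 8.88 in MG, and 23.5 and 23.6 in NoTx. After seizure MLC had 0.278, 0.135, 0.118, 0.0862, 0.135 and 2.00 CPM. MG seizure libraries had 0 (up to 0.294 allowed), 25.0, 88.1 and 15.7 CPM, and NoTx seizure libraries had 23.2, 0.137 and 0 (up to 0.151 allowed). Near-absence was thus found in 1 MG and 2 NoTx seizure libraries as well, and the MLC seizure and saline libraries did not overlap.

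The edgeR log2 fold change of Tfrc for seizure against saline in MLC was -4.28 (SE 1.46, adjusted p = 0.32), which did not pass. The difference between this change and that in MG was -5.38 (SE 2.26, adjusted p = 0.89). Against NoTx after seizure the value was -3.99 (SE 1.45, adjusted p = 0.10). It changed sign to 2.52 without NoTx seizure replicate 1, the library at 23.2 CPM, and it passed without MLC seizure replicate 6 (-5.70, adjusted p = 0.047).

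**Figure D3:**
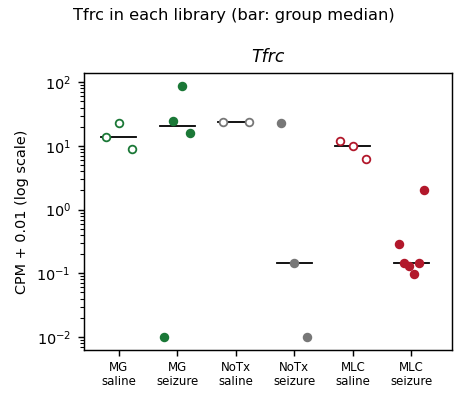
Level of Tfrc in each library, as CPM plus 0.01 on a log scale, by kind of cell and treatment; open circles are saline, filled circles are seizure, and bars are group medians. The 6 MLC seizure libraries lie between 0.0862 and 2.00 CPM, and the MG and NoTx seizure libraries split into near-absent and present ones.

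Slc11a1 encodes a metal transporter of the phagosome and lysosome of macrophages, and Slc11a2 encodes the divalent metal transporter of endosomes. After saline Slc11a1 had 257, 220 and 560 CPM in MLC, 290, 326 and 515 in MG, and 146 and 62.9 in NoTx. After seizure it had 145, 127, 109, 66.7, 29.8 and 63.7 CPM in MLC, 159, 172, 277 and 43.9 in MG, and 43.1, 201 and 233 in NoTx. The seizure libraries of both MLC and MG lay below their saline libraries, and those of NoTx did not. Of tested genes 5.05% lay wholly below in MLC and 12% in MG. The edgeR log2 fold change was -1.94 (SE 0.52, adjusted p = 0.30) in MLC and -1.21 (SE 0.58, adjusted p = 0.42) in MG, and neither passed. With the GC correction these values were -0.99 (adjusted p = 0.32) and -0.23 (adjusted p = 0.83), and Slc11a1 is richer in GC than 84.5% of tested genes.

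Slc11a2 had 43.2, 34.5 and 66.4 CPM in MLC, 55.6, 55.2 and 60.3 in MG, and 31.2 and 17.2 in NoTx after saline. After seizure it had 20.4, 28.1, 37.0, 14.1, 13 and 10.8 CPM in MLC, 36.1, 30.5, 64.3 and 23.6 in MG, and 9.74, 18.4 and 65.5 in NoTx. The MLC treatments overlapped through a saline library at 34.5 and a seizure library at 37.0 CPM. Its log2 fold change in MLC was -1.22 (SE 0.51, adjusted p = 0.37), and -0.51 (adjusted p = 0.75) with the GC correction.

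**Figure D4:**
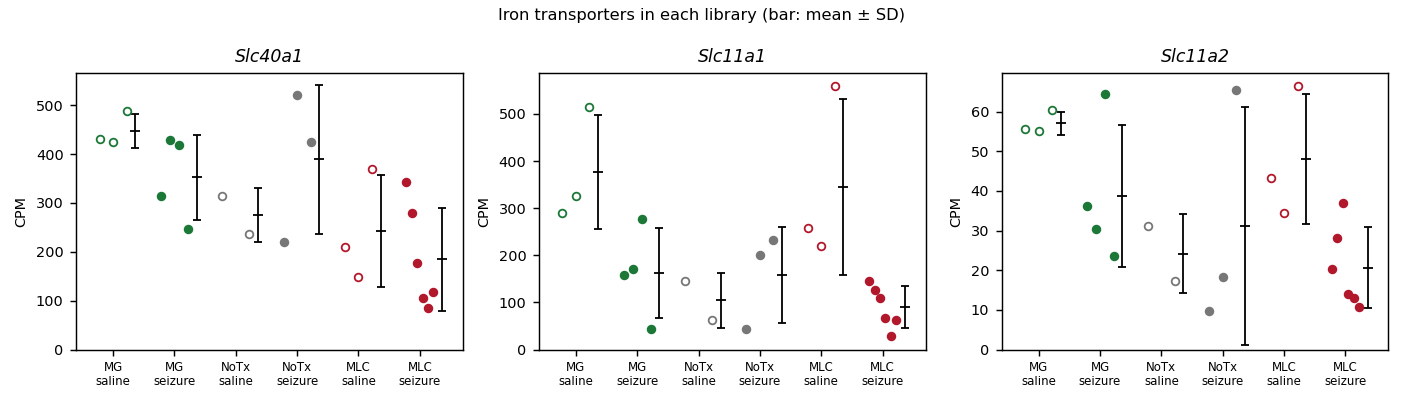
Levels of Slc40a1, Slc11a1 and Slc11a2 in CPM in each library by kind of cell and treatment; open circles are saline, filled circles are seizure, and bars are mean ± SD. The 6 MLC seizure libraries of Slc11a1 (29.8 to 145 CPM) lie below the 3 MLC saline libraries (220 to 560 CPM).

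Counted together in MLC against MG after saline, 4 of the 10 genes lay wholly above MG (Spic, Cp, Blvrb and Ftl1), where 10.4% of tested genes did, and Slc40a1 wholly below, where 12.4% did. After seizure Spic and Cp lay wholly above (2.44% of tested genes) and 0 members below (2.96%). Without the 3 libraries poorest in genes, 5 lay wholly above (Spic, Cp, Blvrb, Ftl1 and Fth1) and Slc11a1 below, with 7.16% and 9.7% of tested genes. These libraries chose Spic, so nothing is read from the counts.

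In MLC against NoTx the test covered the 9 genes other than Spic. After saline Cp and Fth1 were higher, 2 of 9, beside 0.445% of all tested genes called higher, and 0 were lower (0.811%). After seizure Cp alone passed, 1 of 9, beside 2.55% called higher and 3.61% called lower, and this count was also 1 without the 11b libraries and 2 without the 3 libraries poorest in genes. The median log2 fold change of the 9 genes was 1.14 after saline and 0.38 after seizure, against 0.08 and 0 over all tested genes. In MG against the same NoTx libraries it was 0.7 and 0.2, against 0.02 and 0. In MLC against MG it was 0.32 and -0.23, against 0 and 0, given as a description. Both saline calls were lost when either of the 2 NoTx saline libraries was left out.

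**Figure D5:**
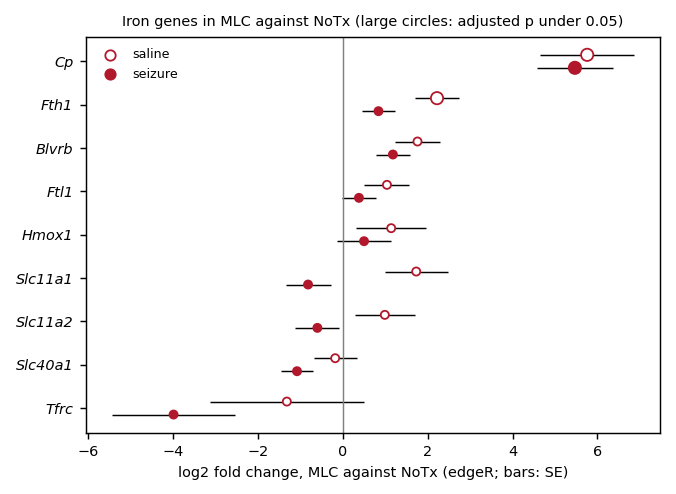
Log2 fold changes of the 9 genes other than Spic in MLC against NoTx, after saline (open) and seizure (filled), with SE as bars; large circles passed an adjusted p of 0.05. Cp passed in both treatments and Fth1 after saline.

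None of the 9 genes was called by edgeR between transplanted and untransplanted microglia. After saline 0 of 9 passed, beside 0.053% of all tested genes. At an unadjusted p under 0.05 there were 2, beside 641 of 18867 tested genes. In limma-voom 1 of the 9 passed, beside 420 of all tested genes. After seizure, too, 0 passed in edgeR, beside 0.0742%. At an unadjusted p under 0.05 there was 1, beside 2086 of all tested genes. Slc11a1 was the larger of the unadjusted saline values (log2 fold change 1.85, SE 0.74, adjusted p = 1) and Fth1 the other (1.16, SE 0.49, adjusted p = 1). A p above the limit does not show that the cells have equal levels.

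Seizure against saline gave 0 of 9 genes in MLC, 0 in MG and 0 in NoTx, beside 0%, 0.0371% and 0.106% of tested genes called by edgeR. At an unadjusted p under 0.05 there were 3, 2 and 1 of the 9, beside 2236, 2226 and 1386 of 18867 tested genes. DESeq2 called 130 genes over the whole table in MLC and limma-voom 96, and neither called any of these 9 genes there. In MLC 2 of 10 genes, Tfrc and Slc11a1, had seizure libraries wholly below saline libraries, beside 5.05% of tested genes. Spic and Cp overlapped between the treatments in MLC. The Cp change in MLC was -0.16 (SE 0.65, adjusted p = 0.98). The difference of the seizure change between MLC and MG passed for 0 of 9 genes and for 0% of all tested genes. At an unadjusted p under 0.05 it gave 1 of the 9, Tfrc, beside 1036 of all tested genes.

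Beyond these genes, a list of 56 other iron and heme genes had 50 above the filter. Against NoTx after saline 0 were higher and 1 lower in MLC: Abcg2, a transporter that exports heme and other porphyrins, had 24.3 ± 6.31 CPM against 94.6 ± 7.19 (log2 fold change -1.96, SE 0.47, adjusted p = 0.033). After seizure 2 were higher: Ireb2, an iron regulatory protein that binds the elements printed above, had 95.8 ± 40.4 against 36.1 ± 6.55 CPM (1.41, SE 0.38, adjusted p = 0.029). Nfe2l2, the activator of antioxidant genes that include Hmox1 and ferritin, had 571 ± 76.6 against 323 ± 54.1 CPM (0.82, SE 0.24, adjusted p = 0.046). Of all tested genes edgeR called 0.445% higher and 0.811% lower after saline, and 2.55% and 3.61% after seizure. DESeq2 gave the same counts for this list. With limma-voom there were 0 higher and 1 lower after saline and 1 higher and 1 lower after seizure. Over all tested genes DESeq2 called 661 and limma-voom 1542 in either direction after saline, and 2748 and 1325 after seizure. By edgeR these totals were 237 and 1162. The median of the list was 0.15 after saline and -0.30 after seizure, against 0.08 and 0 over all tested genes.

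The 4 that were lower after seizure were Lcn2, Ltf, Slc46a1 and Mafg. Slc46a1, a folate and heme transporter, had 18.9 ± 17.7 CPM in MLC and 135 ± 113 in NoTx (log2 fold change -2.83, SE 0.73, adjusted p = 0.021). Lcn2 and Ltf, iron-binding proteins of neutrophil granules, had log2 fold changes of -6.34 and -5.80 (adjusted p = 0.011 and 0.022 by edgeR), and their groups overlapped. The 7 neutrophil markers, Ltf among them, summed to 6.5 to 819 CPM in NoTx and 3.48 to 18.5 CPM in MLC after seizure, and their part in these values was not tested. None of the 50 passed in MG against NoTx, in seizure against saline or in the difference of the seizure change by edgeR. At an unadjusted p under 0.05, MG against NoTx had 2 after saline and 6 after seizure, beside 641 and 2086 of 18867 tested genes. Seizure against saline had 6, 9 and 1 in MG, MLC and NoTx, beside 2226, 2236 and 1386 of tested genes. The difference had 3, beside 1036.

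Markers of iron-recycling macrophages other than Spic were read from a list of 15, of which 12 passed the filter. Against NoTx after saline 1 was higher in MLC: Axl, a receptor for dying cells, with 611 ± 547 CPM in MLC and 7.02 ± 7.11 in NoTx, a log2 fold change of 6.44 (SE 1.44, adjusted p = 0.023). After seizure 3 were higher and 1 lower. Vcam1, an adhesion molecule of red pulp macrophages, had 486 ± 242 against 9.86 ± 8.62 CPM (5.63, SE 1.25, adjusted p = 0.0075). Siglec1, a sialic acid receptor, had 2.68 ± 2.54 against 0.0168 ± 0.0291 CPM (7.15, SE 2.08, adjusted p = 0.043), and Axl had 263 ± 63.0 against 5.47 ± 4.33 (5.57, SE 1.11, adjusted p = 0.0029).

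Mertk, another receptor for dying cells, was lower in MLC than in NoTx after seizure, with 179 ± 63.1 CPM in MLC and 413 ± 4.19 in NoTx, a log2 fold change of -1.21 (SE 0.27, adjusted p = 0.0072 by edgeR). The edgeR counts of this list stand beside 0.445% of all tested genes called higher and 0.811% lower after saline, and 2.55% and 3.61% after seizure. After saline limma-voom called 4 of the list higher and 2 lower, and DESeq2 3 higher and 0 lower. After seizure limma-voom called 3 higher and 2 lower, and DESeq2 3 higher and 1 lower. Over all tested genes limma-voom called 1542 and DESeq2 661 in either direction after saline, and 1325 and 2748 after seizure. By edgeR these totals were 237 and 1162. Cd163, the receptor for haemoglobin bound to haptoglobin, had 7.42 to 14.2 CPM in MLC and 4.23 to 7.30 in NoTx after saline. After seizure it had 1.35 to 16.6 CPM in MLC and 0 to 2.67 in NoTx, with an adjusted p of 0.25. Red cell transcripts (8 markers, mainly globins) summed to 16.2 to 952 CPM in MLC, 6.47 to 157 in MG and 5.87 to 569 in NoTx, which overlapped, and Slc4a1 was at 0 in all MLC libraries. Their part in the Spic values was not tested.

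The genes most like Spic over the 21 libraries were found by the root mean square difference of log2(CPM + 1), with each gene centred on its own mean. The 8 nearest were Klrk1, Serpinb8, Clec4n, Cmah, Gm56663, ENSMUSG00000121482, Lilrb4a and Stap1, with differences of 0.42 to 0.71. Klrk1, an activating receptor known from natural killer cells, had 24.0 to 115 CPM in MLC and at most 0.502 in MG and 2.57 in NoTx. Clec4n, a receptor for fungal sugars also called Dectin-2, had 43.6 to 168 CPM in MLC and at most 0.512 in MG and 3.61 in NoTx. All 8 were high in MLC, the pattern for which Spic was chosen.

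Among the iron genes Cp was the nearest to Spic (difference 1.01, rank 54 of 18867 tested genes), then Blvrb (2.14, rank 696) and Fth1 (2.24, rank 974). Hmox1 ranked 9664 and Slc40a1 16645. Tfrc was the furthest of the 9, at rank 18709.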

How the data were processed

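Libraries were made from sorted brain cells with a kit for low RNA input, per the labels' protocols. The authors deposited estimated counts per gene (expected counts), which were rounded to whole numbers for this work. In each library 28.2% to 45.4% of non-zero values were not whole, and the sources used here do not name the tool that made them. Per the submitters' processing notes, tools named were Trim Galore 0.6.7, cutadapt 3.4, STAR 2.7.10a, featureCounts, Subread 2.4.5 and DESeq2 1.36.0, with build GRCm39. Without molecular identifiers, intervals and floors for counts of 0 (3 counts) cover counting error only. The labels call samples biological replicates and name no animals, so p-values measure the spread between samples.

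All 21 libraries entered 1 edgeR 4.0.16 quasi-likelihood fit in R 4.3.3 (TMM, filterByExpr by group, robust) with 6 group means. The Benjamini-Hochberg adjustment ran over the 18867 tested genes, with a limit of 0.05. SE is the absolute log2 fold change over the square root of F. The 10 comparisons were MLC against MG, MLC against NoTx and MG against NoTx in each treatment, seizure against saline in each kind of cell, and the difference of the seizure change between MLC and MG. Comparisons that share a group share its libraries. Other fits used DESeq2 1.42.0, limma-voom (limma 3.58.1), RLE scaling, no low-count filter, a GC correction, the replicate number as a block, the compared groups alone, the 11b libraries left out, and each library left out. A fit without the 3 libraries poorest in genes, and one with the code in the seizure library names (F1, M1, F2, M2) as a block, were added after seeing the data. The pipeline was tested on simulated data.

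The genes and lists were chosen with earlier results of these data known. The genes named are all 10 genes, called genes of the 2 lists (at most 6 per comparison, by size of change), and the 8 genes nearest to Spic; Cd163 and the overlapping Hps3 were added as context. Summed markers of other cells over all libraries were 21.6 to 130 CPM for oligodendrocytes, 0.502 to 62.3 for endothelium, 15.8 to 99.7 for choroid plexus and 0.053 to 43.9 for neurons.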

Additional observations from a re-analysis of the deposited data

Results flagged for a closer look

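In 20 gene and group pairs with 4 to 6 libraries, 3 had a library far from the others by Dixon's test at 95%, where chance gives about 1 in 20. Fth1 in MG seizure replicate 3 had 1070 CPM, with the next library at 606 CPM and a gap of 0.91 of the range. Tfrc in MLC seizure replicate 6 had 2.00 CPM, with the next at 0.278 CPM and a gap of 0.90. Cp in MG seizure replicate 2 had 8.84 CPM, with the next at 1.40 CPM and a gap of 0.871. MG seizure replicate 3 is 1 of the 3 libraries poorest in genes.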

How the results depend on the processing

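After seizure, the number of the 9 genes called in MLC against NoTx was 1 and became 2 with RLE scaling, with the GC correction, with the replicate number as a block, without the 3 libraries with the fewest genes and with limma-voom, and 4 with DESeq2. It was 1 to 2 when each library was left out. Over all tested genes DESeq2 called 2748, limma-voom 1325 and edgeR 1162 in this comparison. After saline the number for the 9 genes was 2. It became 3 with the replicate number as a block, with the compared groups alone and with DESeq2, and 5 with limma-voom. It was 1 to 2 when each MLC library was left out, and leaving out a NoTx library leaves 1 in that group. Over all tested genes after saline limma-voom called 1542, DESeq2 661 and edgeR 237. In MG against NoTx the number for the 9 genes went from 0 to 1 with limma-voom after saline. There limma-voom called 420 of all tested genes and edgeR 10. After seizure the number was 0 to 1 on leaving out libraries, as it was for seizure against saline in MG. In both, Cp passed in edgeR without MG seizure replicate 2 (log2 fold change -3.19, adjusted p = 0.037, and -3.55, adjusted p = 0.04). The genes not overlapping in MLC against MG after seizure were 2, became 6 without the 3 libraries, and were 2 to 3 on leaving out each library; fewer libraries overlap less by construction. These values reversed without NoTx seizure replicate 1: Tfrc in MLC against NoTx from -3.99 to 2.52 (-5.70 to 2.52 over the libraries left out in turn), and Cp in MG against NoTx from -1.58 to 0.03. Of 1125 values, 78 changed sign and 0 of these with a call. For the other shifts the cause was not tested.

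Same-numbered libraries deviated together with correlations of -0.06 to 0.13, not all above 0.1. Seizure libraries with the same code in their names, which the labels do not explain, gave -0.06 to 0.16. Neither was taken to pair the libraries. With the replicate block Blvrb passed in MLC against NoTx (adjusted p = 0.041 after saline and 0.010 after seizure). With the code as a block 1 of 9 genes passed in MLC against NoTx after seizure (Cp, 5.72, adjusted p = 0.00049), 0 passed in MG against NoTx, and Tfrc in MLC against NoTx was -2.32 (adjusted p = 0.70). The block was not run for seizure against saline, and limma-voom, the block, the unfiltered fit and the GC correction give no separate count of overlaps. Depth limits Spic and Tfrc in libraries at 0 to the upper values printed with them.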
